A study of Mus musculus with 6 samples.

Results

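MHC class II and the genes that load it were followed through RNA-seq libraries of mouse intestine with and without alkaline sphingomyelinase (alk-SMase). The 10 genes were chosen by symbol: Cd74, H2-Aa, H2-Ab1, H2-Eb1, H2-DMa, H2-DMb1, H2-DMb2, Ciita, Ctss and Ifi30. All 10 have an identifier among the 22700 rows of the deposited table, and 9 could be placed on a row, among 12402 placed genes in all. Ciita was not analysed here, since its identifier lay below the ranks that could be placed. The 9 placed genes all passed the filter on low values and were among the 13089 rows tested. The row of each gene was found from its rank in the WT library W83S, and the genes were chosen with the difference between KO and WT known. Their values are therefore given as a description, without the p-value of any single member. Counts of members called or under a p-value limit are description too and are not read as evidence.

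MHC class II molecules are pairs of an alpha and a beta chain that show peptides from endosomes to CD4+ T cells. New pairs bind the invariant chain Cd74, which blocks the groove and takes them to endosomes, where the cysteine protease cathepsin S (Ctss) trims Cd74 and the thiol reductase Ifi30 (GILT) opens disulfide bonds of antigens. H2-DM, made of H2-DMa with H2-DMb1 or H2-DMb2, then exchanges the last piece of Cd74 for a peptide. Ciita is the transactivator that switches these genes on, constitutively in B cells and dendritic cells and after interferon gamma in many other cells, including enterocytes of the small intestine.

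The libraries came from the middle small intestinal mucosa of C57BL/6 mice, 3 KO mice (alk-SMase knockout; K79S, K82S and K86S) and 3 WT mice (wild type; W83S, W89S and W90S). In the KO line exon 2 of Enpp7, the gene of alk-SMase, was removed by Cre-loxP recombination, which shifts the reading frame. The study states that each mouse was typed by PCR and by alk-SMase activity in its feces. Age, sex, the driver of Cre and whether the mice were littermates are not given in the sources used here. The value of each gene is its FPKM, the number of fragments divided by the length of the transcript and the size of the library. Values are listed in the order K79S, K82S, K86S for KO and W83S, W89S, W90S for WT. Fold changes are KO over WT, either as the ratio of the mean FPKM or as a log2 fold change fitted with limma on log2(FPKM + 1).

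The depth of the libraries, read from the commonest ratio between low values of the same row, was 0.578 (K86S) to 0.962 (W89S) of that of W83S. Enpp7 stood at 605, 129 and 669.7 FPKM in KO and at 406, 667 and 495 FPKM in WT, and FPKM over a whole gene cannot reveal a missing exon. The 13 enterocyte markers were all placed and summed to 31525 FPKM (K82S) to 45842 FPKM (K86S), and none of them was at 0. Some libraries stood apart. In W83S the 7 placed gastric markers, led by Tff1, Gkn1 and Psca, made up 5.37% of the summed FPKM, against at most 0.000564% in the other 5 libraries. The 4 placed pancreatic markers summed to 2343 FPKM in W83S, against at most 5.30 FPKM elsewhere. Nearly all of that sum was Pla2g1b (2309 FPKM), with Amy2a5 at 20.1 FPKM and Cela1 at 12.4 FPKM. The exact permutation p of these sums was 0.6 (adjusted p = 0.818) for the gastric and 0.2 (adjusted p = 0.429) for the pancreatic list. K79S held 0.0279 FPKM of the Y-linked Ddx3y, against 2.93 to 4.01 FPKM in the other libraries. Of the Y-linked Eif2s3y it held 0 FPKM, against 5.69 to 8.16 FPKM in the others. These genes were looked up after the values were seen. By their values K79S came from a female and the other libraries from males, so sex was uneven between the genotypes. The fit has no term for sex, and its part in the differences was not tested. K82S had the lowest Enpp7 and the highest B cell markers.

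The chains of the class II molecule itself were higher in every KO library than in any WT library. H2-Ab1, the beta chain of H2-A, had 638, 593 and 628 FPKM in KO and 213, 300.4 and 252 FPKM in WT. The KO libraries lay within 1.08-fold of each other and the ratio of the means was 2.43. H2-Aa, the alpha chain that pairs with it, had 354, 686 and 355 FPKM in KO and 141, 243 and 164 FPKM in WT. K82S stood above the other KO libraries, with a range of 1.94-fold within KO, and the ratio of the means was 2.55. H2-Eb1, the beta chain of H2-E, had 408, 539 and 383 FPKM in KO and 145, 208 and 189 FPKM in WT, without overlap and with a ratio of 2.46. C57BL/6 mice do not make the alpha chain of H2-E. These 3 genes lie close together on chromosome 17 of mm10 (GENCODE M21), H2-Ab1 at chr17:34257689-34269419 on the plus strand, H2-Aa at chr17:34282744-34287823 on the minus strand and H2-Eb1 at chr17:34305867-34316674 on the plus strand. An antisense gene, Gm20513, overlaps H2-Eb1, and without stated strand handling their reads cannot be told apart.

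Cd74, on chromosome 18 from 60803848 to 60812652, was the most abundant member in all 6 libraries. It had 1667, 1614 and 1511 FPKM in KO and 544, 734 and 619 FPKM in WT. The groups did not overlap, the KO libraries differed by 1.10-fold among themselves, and the ratio of the means was 2.53.

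Among the subunits of the peptide exchanger H2-DM, H2-DMa and H2-DMb1 differed without overlap. H2-DMa (chr17:34119541-34139101) had 47.6, 52.5 and 47.3 FPKM in the KO libraries and 18.4, 25.7 and 23.0 FPKM in the WT libraries, without overlap, a ratio of 2.20. It overlaps Brd2 on the other strand, so that reads of either gene may be counted for the other. H2-DMb1 (chr17:34153072-34160230) had 49.2, 64.9 and 52.1 FPKM in KO and 18.8, 24.7 and 20.3 FPKM in WT, also without overlap, a ratio of 2.60. Its close paralogue H2-DMb2 (chr17:34143307-34151555) was lower and its groups overlapped. It had 10.3, 23.3 and 9.60 FPKM in KO and 3.91, 8.66 and 11.3 FPKM in WT, where W90S lay above K79S and K86S. The 2 beta genes are similar in sequence, and reads they share could be split between them.

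The enzymes that act on Cd74 and on antigens overlapped between the genotypes. Ctss (chr3:95526786-95556403) had 133, 210.1 and 117 FPKM in the KO libraries and 111, 128 and 131 FPKM in the WT libraries. K82S stood highest, K79S just above W90S, and K86S lay below W89S and W90S. The ratio of the means was 1.24. Ifi30 (chr8:70762774-70766663) had 69.8, 56.3 and 74.9 FPKM in KO and 89.2, 66.7 and 97.0 FPKM in WT, with a ratio of the means of 0.795 and overlapping groups.

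**Figure D1:**
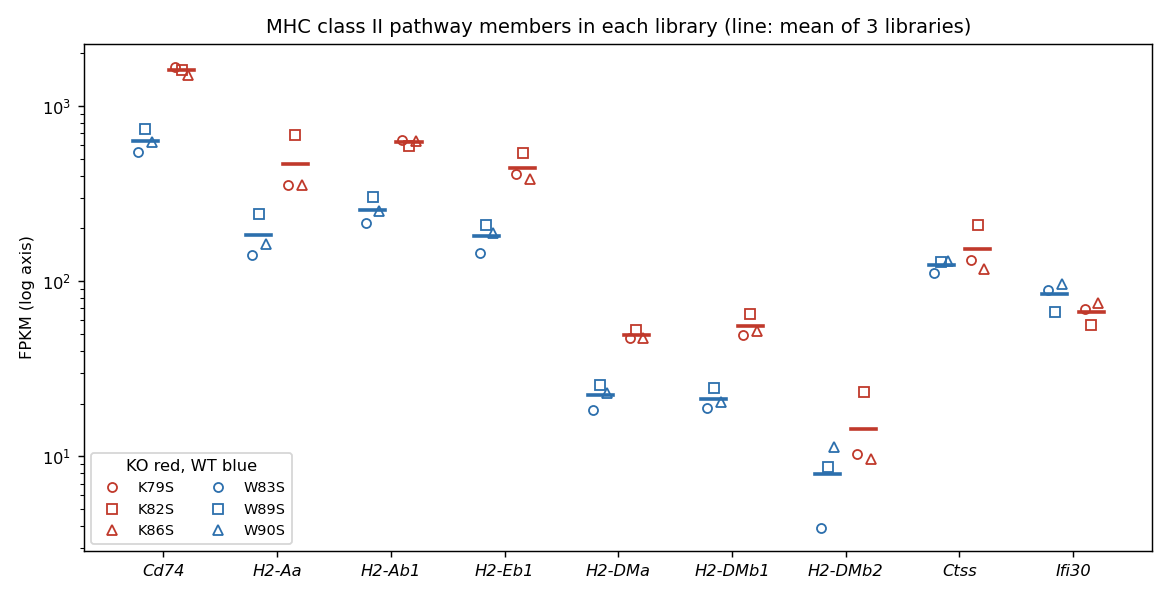
FPKM (log axis) of the 9 placed members in each KO (red) and WT (blue) library, with a line at the mean of 3 libraries. Cd74, H2-Aa, H2-Ab1, H2-Eb1, H2-DMa and H2-DMb1 have all red points above all blue points, while the points of H2-DMb2, Ctss and Ifi30 overlap.

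In bulk tissue a change in the number of cells of a type and a change in RNA per cell cannot be told apart. In 6 of the 9 members each KO library thus exceeded each WT library, which was true of 5.90% of the 13089 rows tested. Their log2 fold changes ran from 1.11 (H2-DMa, standard error 0.17) to 1.35 (Cd74, standard error 0.19). That of H2-DMb2 was 0.77 (standard error 0.44), that of Ctss 0.27 (standard error 0.25) and that of Ifi30 -0.32 (standard error 0.21). The median over the 9 was 1.29, beside -0.06 over all rows. With adjustment over all rows 0 of the 9 members were called by limma, where 0.00764% of rows (1 row) were called in either direction. Unadjusted p-values under 0.05 came with 6 members, all higher in KO, beside 12.5% of all rows in either direction and 2.87% higher in KO. Without K82S 5 members were called higher in KO, H2-Ab1, H2-Eb1, Cd74, H2-DMa and H2-DMb1, where 0.400% of 12764 rows were called higher and 8.88% lower (9.28% in all). Without both K82S and W83S, an alternative chosen after seeing the data, it was 4 members, those but Cd74, where 0.336% of 12510 rows were called higher and 8.55% lower. Without K82S alone the log2 fold change was 0.99 for H2-Aa, 0.39 for H2-DMb2 and 0.02 for Ctss. Without K79S and W83S, the libraries whose ranks placed the names, no row was called, and the median over the members was 1.15. Since the members were chosen on this contrast, these counts are a description and are not read as evidence.

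Per length, the order of levels was the same in both genotypes at the top. In KO it ran from Cd74 (1597 ± 79.7 FPKM, SD, n = 3) through H2-Ab1 (620 ± 23.6), H2-Aa (465 ± 191), H2-Eb1 (443 ± 83.8), Ctss (153 ± 49.8), Ifi30 (67.0 ± 9.61), H2-DMb1 (55.4 ± 8.38) and H2-DMa (49.1 ± 2.92) to H2-DMb2 (14.4 ± 7.69). In WT it ran from Cd74 (632 ± 96.0 FPKM) through H2-Ab1 (255 ± 43.6), H2-Aa (183 ± 53.2), H2-Eb1 (181 ± 32.7), Ctss (123 ± 10.4), Ifi30 (84.3 ± 15.7), H2-DMa (22.4 ± 3.67) and H2-DMb1 (21.3 ± 3.06) to H2-DMb2 (7.96 ± 3.74). H2-Ab1 and H2-Aa, H2-Aa and H2-Eb1, and H2-DMa and H2-DMb1 had overlapping ranges over the mice of both genotypes, although within a library H2-Aa was below H2-Ab1 in 5 of 6 libraries and H2-DMa below H2-DMb1 in all 3 KO libraries. Ifi30 overlapped with H2-DMb1 in KO, whereas in WT it lay above both H2-DM genes in all libraries.

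The proportions among members were computed within each library. H2-Ab1 stood at 0.383, 0.368 and 0.416 of Cd74 in KO and at 0.393, 0.409 and 0.407 in WT, so the groups overlapped within a narrow range. H2-Aa stood at 0.554, 1.16 and 0.565 of H2-Ab1 in the KO libraries and at 0.661, 0.808 and 0.652 in the WT libraries. K82S was the only library with more H2-Aa than H2-Ab1. H2-DMb2 made up 0.209, 0.358 and 0.185 of H2-DMb1 in KO and 0.208, 0.350 and 0.556 in WT, a range in which the genotypes overlapped.

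Relative to Cd74, H2-DMa, Ctss and Ifi30 were lower in each KO library than in any WT library. Cd74 was chosen on this contrast and its mean was 2.53-fold higher in KO. A gene without a difference therefore also gives a lower ratio in KO, and the share of all rows with such ratios was not computed. The ratio of H2-DMa to Cd74 was 0.0286, 0.0325 and 0.0313 in KO and 0.0339, 0.0350 and 0.0372 in WT. H2-DMa also stood lower relative to H2-DMb1, at 0.967, 0.808 and 0.908 in KO and 0.977, 1.04 and 1.13 in WT, without overlap. The ratio of Ctss to Cd74 was 0.0796, 0.130 and 0.0776 in the KO libraries and 0.205, 0.175 and 0.211 in the WT libraries, without overlap. The ratio of Ifi30 to Cd74 was 0.0418, 0.0349 and 0.0496 in KO and 0.164, 0.0908 and 0.157 in WT, also without overlap. Of the summed FPKM of the 9 members, Ifi30 held 1.47% to 2.36% in KO and 3.83% to 6.94% in WT.

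**Figure D2:**
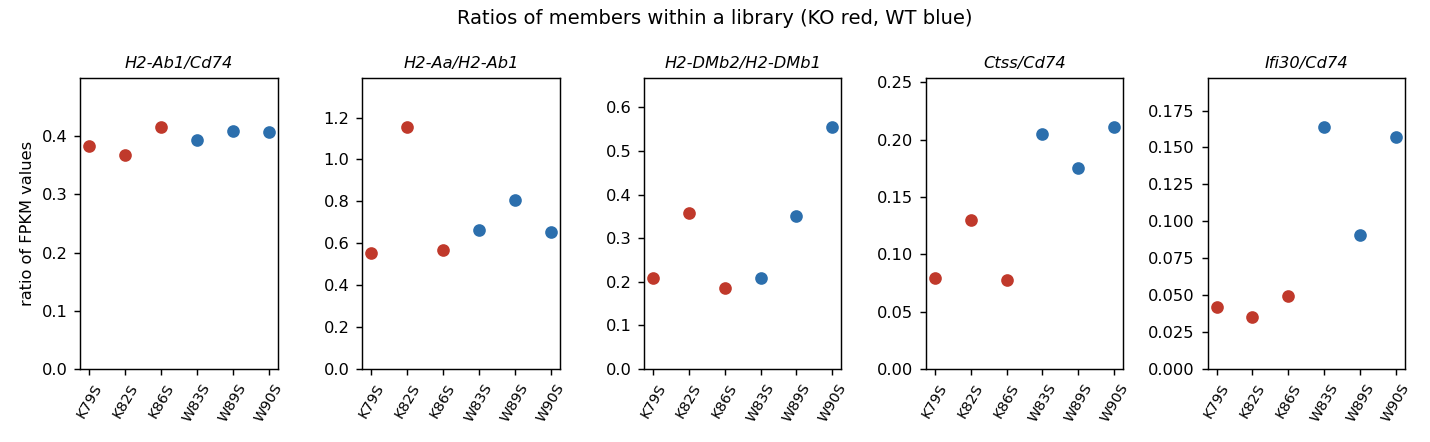
Ratios of FPKM between members within each library, KO in red and WT in blue, with axes from 0. The ratio of H2-Ab1 to Cd74 stays between 0.368 and 0.416, and H2-Aa over H2-Ab1 is highest in K82S at 1.16. Ctss and Ifi30 over Cd74, which is itself higher in KO, are lower in every KO library than in any WT library.

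Within a genotype the members also varied between mice. K82S held the highest KO value of 6 of the 9 members and W83S the lowest WT value of 8 of 9. Over the 9 members the summed FPKM was 3376, 3839 and 3178 in the 3 KO mice, and 1285, 1740 and 1505 in the 3 WT mice. As a share of all FPKM the members made up 0.755% (K86S) to 0.859% (K79S) in KO and 0.266% (W83S) to 0.351% (W89S) in WT.

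Promoters of class II genes are known for the X and Y boxes, which the RFX complex and NF-Y bind and on which Ciita assembles. The RefSeq promoter table (GRCm38.p6, from 250 bases before to 50 after a gene's start) holds 7 of the members, in 8 windows. H2-Ab1, Ciita and Cd74 are not among them. To show the class II promoter letters in members with and without overlap, the 110 bases that end at -26 from the start are shown in the gene's direction, with capitals for matches to part of the X1 box (ACNGATG) and to the Y box core (GATTGG), either strand. The stretches are chr17:34287849-34287958 (minus strand) for H2-Aa, chr17:34305732-34305841 (plus strand) for H2-Eb1 and chr17:34145114-34145223 (plus strand) for H2-DMb2.
H2-Aa: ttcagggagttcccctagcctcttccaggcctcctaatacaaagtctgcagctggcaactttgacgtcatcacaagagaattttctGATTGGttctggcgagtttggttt
H2-Eb1: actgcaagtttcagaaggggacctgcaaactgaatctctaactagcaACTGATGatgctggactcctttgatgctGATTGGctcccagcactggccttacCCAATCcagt
H2-DMb2: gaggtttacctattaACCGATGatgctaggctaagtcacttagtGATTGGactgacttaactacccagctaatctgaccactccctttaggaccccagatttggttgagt

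The X1 letters began 28 to 29 bases before the Y letters, on the gene's strand, in H2-Eb1 (-88 and -60), H2-DMb1 (-91 and -62) and H2-DMb2 (-120 and -91). Each motif alone was common, in 9.85% of 32851 windows for ACNGATG and in 16.1% for GATTGG. Both together with 25 to 32 bases between their starts, a spacing set after these matches were seen, stood in 6 windows (0.0183%), those of H2-DMb1, H2-DMb2, H2-Eb1, H2-Eb2, BC051142 and Scaper. H2-Aa held GATTGG at -49 and ACNGATG only at -232 on the opposite strand. Only exact matches to part of a box were searched, so a missing match does not show that the box is absent. H2-DMa held GATTGG in 1 of its windows, at -199. Ctss held ACNGATG at -206 without GATTGG, and Ifi30 held neither. The motif TTCNNNGAA, known as the core of the interferon gamma activated site (GAS), was found in 8.30% of all windows and among the members in that of H2-DMb2, at -218. These letters are their own reverse complement, so any match reads on both strands.

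**Figure D3:**
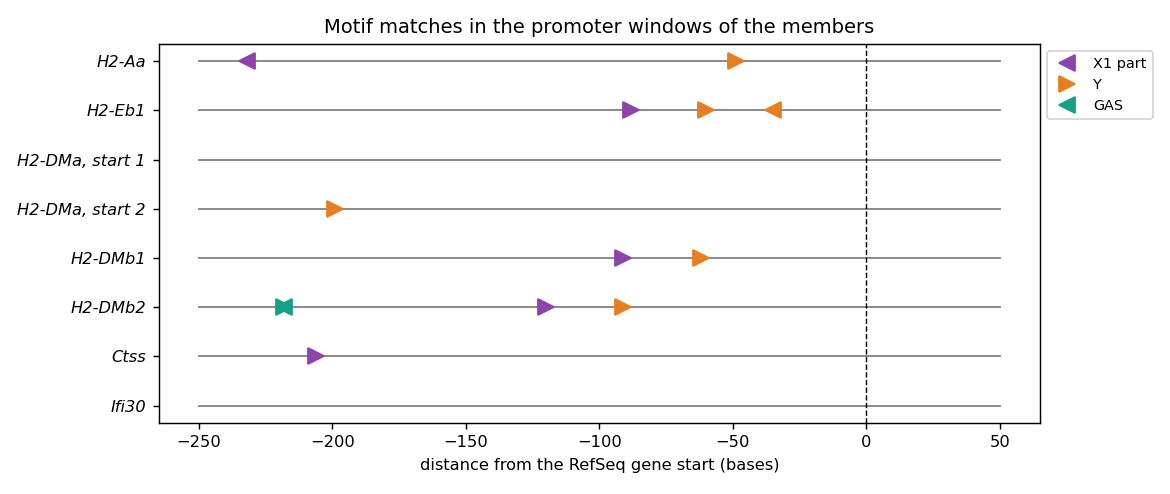
Matches to ACNGATG (X1 part), GATTGG (Y) and TTCNNNGAA (GAS) in the 8 RefSeq promoter windows of 7 members, by distance from the gene start in bases. Arrowheads point right for the gene's strand and left for the opposite strand, and X1 stands 28 to 29 bases before Y in H2-Eb1, H2-DMb1 and H2-DMb2.

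Of 20 further genes of the class II pathway, 13 were placed and tested. This list and those below were chosen with earlier results of these data known, so their counts and p-values are description too. Not analysed here were H2-Oa and H2-Ob, which form the inhibitor of H2-DM, together with H2-Eb2, Rfx5, Creb1, March1 and H2-Ea. Limma called 0 of the 13, with 1 unadjusted p-value under 0.05, beside 12.5% of all rows in either direction. The median log2 fold change was -0.04. The ratio of their summed means was 0.891 (p = 0.5, adjusted p = 0.818 over 15 lists, exact permutation test). In none of them did the KO values all exceed the WT values. Rfxap, a subunit of the RFX complex, had 2.90, 3.19 and 4.05 FPKM in the KO libraries and 5.28, 5.39 and 4.59 FPKM in the WT libraries. All its KO values lay below its WT values, as in 11.3% of all rows (log2 fold change -0.48, standard error 0.14, adjusted p = 0.393 from limma). The other placed factors of these promoters, Rfxank, Nfya, Nfyb and Nfyc, had log2 fold changes from -0.11 to 0.04, each with overlapping groups.

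The endosomal proteases and the regulators of class II turnover showed no common direction. Lgmn, an asparaginyl endopeptidase, stood at 0.40 on the log2 scale (standard error 0.22), and Ctsb, Ctsd, Ctsl and Ctsh, cathepsins of the lysosome, lay between -0.42 and 0.10. Sppl2a, the protease that clears the last membrane stub of Cd74, had 0.18 and March8, a ubiquitin ligase, 0.07. Cst3, which encodes the protease inhibitor cystatin C, had 48.7, 88.5 and 46.3 FPKM in KO and 114.8, 89.2 and 77.0 FPKM in WT. The groups overlapped at a log2 fold change of -0.65 (standard error 0.30), with an adjusted p of 0.400 from limma. Without K82S it was called lower, at -0.95 (adjusted p = 0.0477 from limma), as were 8.88% of rows, and its adjusted p ran up to 0.962 when other libraries were left out.

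**Figure D4:**
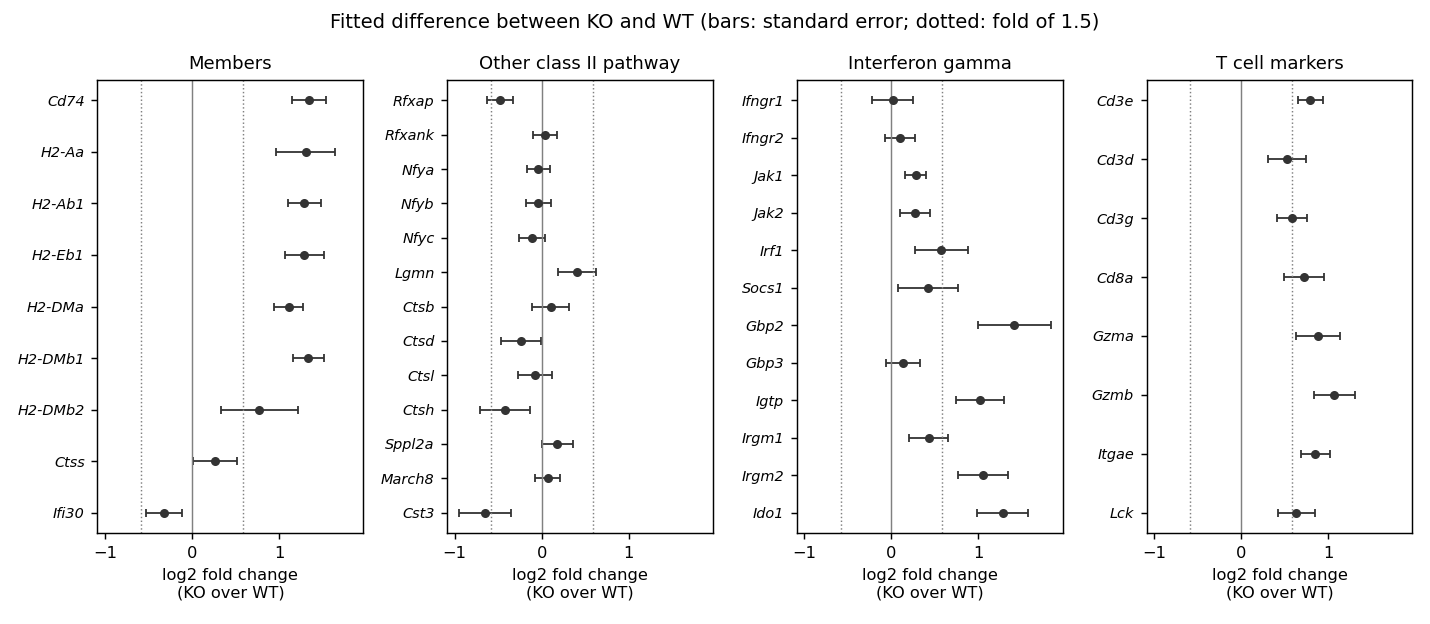
Fitted log2 fold change of KO over WT with its standard error for the members, the other class II pathway genes, genes of the interferon gamma list and T cell markers; dotted lines mark a fold of 1.5. The 6 members without overlap lie between 1.11 and 1.35, the other class II pathway genes between -0.65 and 0.40.

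Interferon gamma is the main inducer of Ciita outside professional antigen-presenting cells. Of 21 genes of its signalling and response, 13 were placed, and Ifng itself was not analysed here. None was called by limma, and 5 had an unadjusted p-value under 0.05, beside 12.5% of all rows in either direction. The median log2 fold change was 0.43, positive in 13 of 13. In 6 of the 13 the KO values were all above the WT values, beside 5.90% of all rows. The receptor chains Ifngr1 and Ifngr2 had log2 fold changes of 0.01 and 0.09. The kinases Jak1 and Jak2 had 0.28 and 0.27, without overlap for Jak1. Ido1, a tryptophan-degrading enzyme, had 35.4, 59.6 and 39.6 FPKM in KO and 22.0, 19.8 and 12.1 FPKM in WT (log2 fold change 1.28, standard error 0.29, adjusted p = 0.393 from limma). Its groups did not overlap.

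The transcription factor Irf1 had 50.4, 73.1 and 43.5 FPKM in KO and 37.8, 24.8 and 50.1 FPKM in WT, with overlap. The genes without overlap included the GTPases Gbp2, Igtp and Irgm2, chosen after their values were seen. Gbp2 had 3.60, 13.1 and 4.63 FPKM in KO and 2.11, 1.89 and 1.15 FPKM in WT. The log2 fold changes were 1.41 (Gbp2), 1.02 (Igtp) and 1.06 (Irgm2), each with an adjusted p of 0.393 from limma. Gbp3 and Irgm1, the other placed GTPases of the list, overlapped between genotypes, with log2 fold changes of 0.13 and 0.43. The summed list had a ratio of 1.38 (p = 0.1, adjusted p = 0.25, exact permutation test).

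MHC class I genes, which show peptides of the cytosol to CD8+ T cells, were all placed, 13 of 13, with a median log2 fold change of 0.44. The 5 most abundant had log2 fold changes of 0.19 (B2m, the light chain), 0.54 (H2-K1), 0.45 (H2-D1), 0.14 (Calr) and 0.62 (Tapbp). In 6 of the 13 the KO values were all above the WT values, beside 5.90% of all rows. Limma called 0 of them, with 6 unadjusted p-values under 0.05, beside 12.5% of all rows in either direction. The summed list had a ratio of 1.22 (p = 0.1, adjusted p = 0.25, exact permutation test).

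The cells of the mucosa that carry class II were followed with lists of markers, also chosen with earlier results of these data known. Each list's summed FPKM was compared with an exact two-sided permutation test, of which the smallest p is 0.1. The 3 placed B cell markers, Cd79a, Cd79b and Spib, reached a sum of 6.44, 69.5 and 9.81 FPKM in KO, and of 7.10, 28.3 and 49.5 FPKM in WT (p = 1.0, adjusted p = 1.0 over 15 lists, exact permutation test). None of the 3 was at 0 in any library, and the other 9 B cell markers, Ms4a1 among them, were not placed. K79S and K86S thus had a lower B cell sum than W89S and W90S, and their Cd74 was 1667 and 1511 FPKM against 734 and 619 FPKM. K82S, the library highest in B cell markers, held the highest KO value of 6 members and the lowest of the 2 members H2-Ab1 and Ifi30, and W83S, the WT library lowest in them, held the lowest WT value of 8. Among the other WT libraries W90S had the higher B cell sum and W89S the higher value of 6 members, H2-Aa among them (164 against 243 FPKM). The part of B cells in these differences was not tested.

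Dendritic cell markers were scarce. Of 11, Itgax and Irf8 were placed, and they summed to 26.0, 25.8 and 17.98 FPKM in KO and 12.5, 16.1 and 17.6 FPKM in WT (p = 0.1, adjusted p = 0.25, exact permutation test). Itgax, the integrin CD11c, had 1.97, 2.27 and 2.07 FPKM in KO and 1.16, 1.42 and 1.57 FPKM in WT, without overlap. Irf8, a transcription factor that B cells also make and the larger part of the sum, had 24.0, 23.5 and 15.9 FPKM in KO and 11.3, 14.7 and 16.03 FPKM in WT. Its groups overlapped, and those of the sum were separated by K86S at 17.98 FPKM and W90S at 17.6 FPKM. Their part in the class II values was not tested. The 7 placed macrophage markers, with Lyz2, C1qa and C1qb the most abundant, summed to 64.3, 200.1 and 101 FPKM in KO and 89.8, 244 and 178 FPKM in WT (p = 0.5, adjusted p = 0.818, exact permutation test). The ratio of the summed means was 0.713, while the median log2 fold change over the 7 was 0.20, so sum and median differed in sign. The complement genes C1qa, C1qb and C1qc had ratios of 1.18, 1.25 and 1.18, with overlapping groups. Lyz2 (17.5, 122 and 27.0 FPKM in KO, 41.0, 184 and 123 FPKM in WT) has a close paralogue in Paneth cells, Lyz1, with which it may share reads. Csf1r, the receptor of the macrophage growth factor, had no overlap, a gene chosen after its values were seen, with 4.69, 5.52 and 6.90 FPKM in KO and 3.32, 4.53 and 3.39 FPKM in WT.

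T cell markers were higher in each KO library than in any WT library. For all 8 placed markers of 11 the KO values exceeded the WT values, beside 5.90% of all rows, although limma called 0 of the 8. Their sum was 163, 229 and 161 FPKM in KO and 118, 74.7 and 98.4 FPKM in WT (p = 0.1, adjusted p = 0.25, exact permutation test). The most abundant were Gzma, Gzmb and Cd8a, of the cytotoxic T cells that sit in the epithelium. Gzmb had 34.3, 39.3 and 35.5 FPKM in KO and 22.0, 11.7 and 18.2 FPKM in WT (log2 fold change 1.07, standard error 0.24, adjusted p = 0.393 from limma). Without K82S 2 of the 8, Cd3e and Itgae, were called higher, beside 0.400% of all rows. The part of T cells in the class II values was not tested.

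The enterocyte sum overlapped between genotypes, and the crypt sum did not. The 13 enterocyte markers, headed by Apoa1, Fabp2 and Apoa4, had a ratio of summed means of 1.01 (p = 1.0, adjusted p = 1.0, exact permutation test). The most abundant genes weigh most in this sum. The median log2 fold change over the 13 was 0.20, beside -0.06 over all rows. In 2 of the 13 the KO values were all above the WT values, beside 5.90% of all rows, and limma called 0. The 4 placed crypt markers, Olfm4, Smoc2, Mki67 and Top2a, summed to 8.76, 33.8 and 18.3 FPKM in KO and 35.6, 61.5 and 83.4 FPKM in WT (p = 0.1, adjusted p = 0.25, exact permutation test). The plasma cell list, headed by Igha, Jchain and Sdc1, had a ratio of 1.53 (p = 0.1, adjusted p = 0.25), the leukocyte list, headed by Coro1a, Cd52 and Laptm5, 1.22 (p = 0.8, adjusted p = 1.0), and the follicle and M cell genes Ccl20 and Ltb 0.505 (p = 0.6, adjusted p = 0.818, exact permutation tests). Icosl, the co-stimulation gene that was placed, had a ratio of 1.03 (p = 1.0, exact permutation test).

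**Figure D5:**
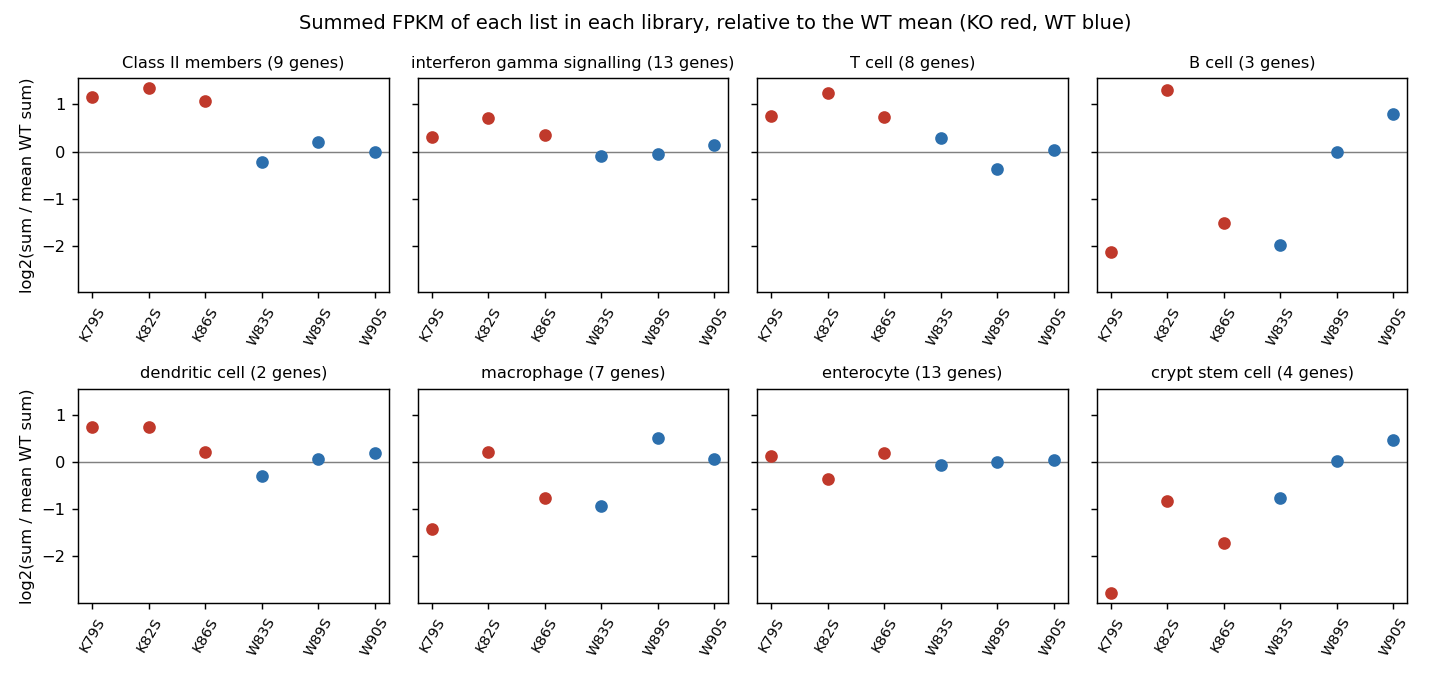
Summed FPKM of the placed genes of 8 lists in each library, as log2 of the ratio to the WT mean, KO in red and WT in blue. The class II members and the interferon gamma, T cell and dendritic cell lists have all red points above all blue points, B cell markers are highest in K82S and low in K79S, K86S and W83S, and crypt markers are lowest in K79S.

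The genes whose pattern over the 6 libraries was most like that of the members were found by Pearson's r with the class II score, the mean of the members' log2(FPKM + 1) after centring and scaling. The score was 0.47, 0.99 and 0.41 in KO and -0.97, -0.46 and -0.43 in WT. Among the members r ran from 0.995 (H2-Eb1) down to 0.715 (Ctss), with -0.743 for Ifi30. Each member is itself a part of the score, so these values cannot be set against those of other genes. Of 11847 other placed genes the closest were Map2k4 (r = 0.995), Osbpl11 (0.991), Gal3st2 (0.984), Itgax (0.984), Enpep (0.980), Trim31 (0.979), Ppp6r3 (0.977) and Fcho2 (0.974). Their log2 fold changes were smaller than those of the chains, from 0.16 (Ppp6r3) to 0.56 (Enpep). Enpep, a brush border aminopeptidase, had 472, 557 and 409 FPKM in KO and 285, 350 and 335 FPKM in WT. With 6 points in 2 genotypes and so many genes compared, such values of r describe these libraries alone.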

How the data were processed

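RNA was measured in 3 KO and 3 WT mice, with 1 library per mouse. The authors trimmed 50 bp single-end reads with trim-galore, mapped them with HISAT2 to mm10 and quantified genes with StringTie. They deposited FPKM values per gene and library. Versions, annotation and strand handling are not given in the sources used here. FPKM is divided by gene length and library size, so levels of different genes can be set side by side, while the reads behind each value are not given. Every library column matched a label, so 0 were left unmapped.

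Gene identifiers stood beside the values of other rows. Identifiers were ranked by the K79S value beside them and rows by W83S, both descending, and the identifier of a rank was put on the row of that rank plus an offset between -2 and 3. The offsets were set piecewise along the ranking, up to rank 12482, and came from earlier work on these data. Names came from GENCODE M21, in which 22680 of 22700 identifiers had a symbol, and 12402 were placed. Genes under about 0.954 FPKM in W83S could not be placed.

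A row was dropped if over 4 libraries had less than 1 FPKM. The 13089 others entered a limma 3.58.1 fit on log2(FPKM + 1) in R 4.3.3 (variance trend, all 6 libraries, no covariate, Benjamini-Hochberg adjustment over all rows). A row was called at an adjusted p under 0.05 and a fold above 1.5 or below 2/3. The study's edgeR test needs read counts and was not used. On data simulated for KO against WT over 13089 rows, of which 200 were shifted by a log2 change of 2, and with noise of the residual SD seen in each row, 166 of the 200 were called, with 9 unchanged rows. That shift was larger than the log2 fold change of any member (at most 1.35), and the noise was drawn separately for each row. The simulation thus does not show how changes of the members' size, or differences shared by many rows of a library, are called. Summed levels of 15 lists were compared with two-sided exact permutation tests in Python 3.11.15 with scipy 1.17.1. Replicates are separate mice by the study's methods.

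The members and lists were chosen with earlier results of these data known. Named genes were the members, Enpp7, the placed genes of the class II pathway list, the 3 most abundant placed genes of each other list (5 for interferon gamma and MHC class I), any gene called, and the 8 genes most like the members. The values of some listed genes are not reported here. Alternatives were other pseudocounts, scalings, filters, weights and left-out libraries.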

Additional observations from a re-analysis of the deposited data

How the results depend on the processing

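Each of the 9 members was recomputed under 16 alternatives. Their direction held in all 16, except that the log2 fold change of Ctss turned to -0.054 without K82S and W83S, an alternative chosen after seeing the data. That of H2-DMb2 ranged from 0.01 to 1.05. At least 6 members had no overlap under each alternative, but most alternatives could not lower this count. It is taken from the FPKM values, so pseudocounts, filters, variance settings and weights leave it unchanged. Leaving out libraries can only keep or raise it. Only a change of scaling could lower it, and it was 7 with a fixed sum per library and 7 with median-of-ratios scaling. With a fixed sum per library the median of all rows shifted from -0.06 to 0.08 and that of the members from 1.29 to 1.48.

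The count of rows called, 1 with all libraries, was 0 with pseudocounts of 0.1 and 0.01, 2 with array weights, 0 without K79S and W83S, 1111 without K82S and W83S, and 0 to 1184 when 1 library was left out (1184 without K82S). Members called numbered 0 to 5 when 1 library was left out (5 without K82S) and 4 without K82S and W83S. Their median log2 fold change was 1.06 to 1.40 over the left-out libraries and 0.94 without K82S and W83S. Class II pathway genes called were 0 to 1 over the left-out libraries (1 without K82S). The cause of these shifts was not tested.

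Ratios of summed means crossed 1 for some lists when 1 library was left out: B cell 0.287 to 1.62, leukocyte 0.746 to 1.499, enterocyte 0.943 to 1.12, co-stimulation 0.932 to 1.29, and follicle and M cell 0.250 to 1.17. Without K79S and W83S they were 1.01 for the class II pathway, 0.973 for co-stimulation, 0.947 for enterocyte and 1.03 for gastric markers. Without K82S and W83S they were 0.209 for B cell, 0.618 for leukocyte and 0.909 for co-stimulation. None of these lists was past a threshold with all libraries.

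The reads behind each value are not given, so no counting error can be stated, and 3 libraries against 3 limit every permutation p to 0.1 or more. No paired analysis was possible because no label says which KO mouse belongs with which WT mouse.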
